A study of Mus musculus with 12 samples.

Results

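Muscle of mice that carried a Lewis lung carcinoma was compared with muscle of mice given PBS, across every gene with a mean of at least 1 FPKM over the 6 libraries. FPKM is a read count scaled to transcript length and library depth, so levels of different genes can be compared. The rule kept 12981 of 20194 genes, and 12334 of those kept were protein-coding. Values of 3 libraries are given in the order 1, 2 and 3 throughout. The groups were PBS, 3 libraries from C57BL/6 mice injected with buffer, and LLC, 3 libraries from C57BL/6 mice injected under the skin with 500000 Lewis lung carcinoma cells, a mouse lung tumour line. Tissue of both groups was taken on day 22, and the labels give no age, no sex, no weight loss per mouse and no name for the muscle. The cell type label reads cachexia for the PBS libraries as well, and the treatment protocol gives the strain as C57BL/6J. PolyA RNA was sequenced. The study's other 6 libraries are ATAC-seq of cultured C2C12 myotubes. Whether each library is a mouse of its own is not stated, so the p-values reflect scatter among these libraries only, which may be technical in origin.

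In cancer cachexia patients and animals with tumours waste muscle and fat. A wasting muscle breaks down its myofibrils through the ubiquitin-proteasome and autophagy systems, burns more fat and less glucose, and receives glucocorticoids, interleukin-6 family cytokines and members of the TGF-beta family from outside. The Lewis lung carcinoma mouse is a common model of it, in which the tumour itself grows away from the muscle that is studied.

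All 6 libraries were muscle by their marker genes, and they also held RNA of other tissues in amounts that differed within each group. The 16 muscle fibre markers together stood at 64522, 65316 and 57731 FPKM in the PBS libraries and 62733, 67237 and 71115 FPKM in the LLC libraries, which was between 12.0% and 18.5% of all FPKM. The 15 neutrophil and granule markers summed to 144, 6776 and 12695 FPKM in the PBS libraries and 6399, 11277 and 219 FPKM in the LLC libraries. The 13 erythroid markers summed to 1755, 24528 and 51233 FPKM in the PBS libraries and 4867, 12702 and 3635 FPKM in the LLC libraries. PBS 1 and LLC 3 had the lowest sums of both lists, far under the other 4 libraries for neutrophil markers, so that blood-forming transcripts differed within both groups. Principal component 1 held 60.9% of the variance and put PBS 1 and LLC 3 on one side and PBS 2, PBS 3 and LLC 2 on the other. Across genes PBS 1 had a higher Pearson correlation with LLC 3 (0.942) than with PBS 2 (0.903) or PBS 3 (0.836). Short transcripts were also low in PBS 1. Against the mean of the 6 libraries, the 1357 tested transcripts under 1000 bp had a median log2 level of -0.39 in PBS 1 and of 0.20 in PBS 3, while the 3426 over 4000 bp stood at -0.10 and -0.03. Depth is not given by the labels and was inferred from the FPKM step of each library, at 17.0 M to 20.1 M tags per library.

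**Figure D1:**
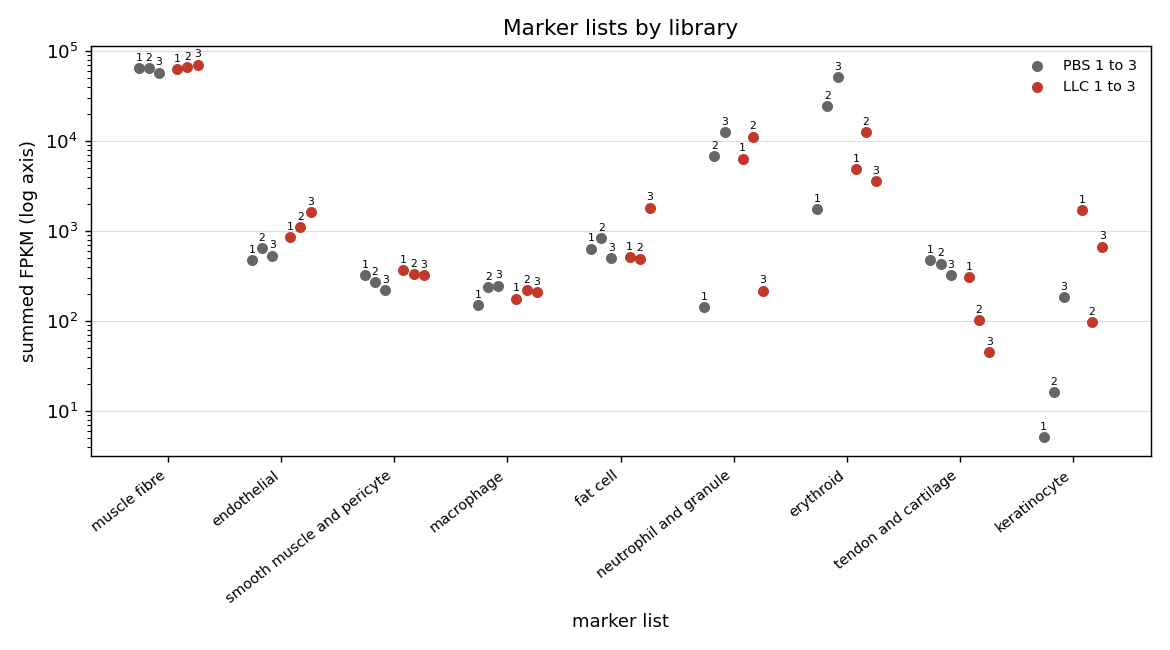
Summed FPKM of 9 lists of marker genes in each library, on a log axis; each point is 1 library, PBS in grey and LLC in red, with the library number beside it. Muscle fibre markers lie between 57731 and 71115 FPKM in all 6 libraries, blood markers vary within both groups, endothelial markers are higher in every LLC library, and tendon markers are lower in every LLC library.

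No gene passed the test of LLC against PBS muscle. limma, a linear model with moderated variances fitted to log2(FPKM + 1), gave 0 genes at a Benjamini-Hochberg adjusted p under 0.05 over the 12981 genes. At an unadjusted p under 0.05 it gave 755 genes higher in LLC (5.82%) and 236 lower (1.82%). On read ends recovered from the FPKM steps edgeR's quasi-likelihood test also called 0 genes, whereas DESeq2 called 244 higher (1.88%) and 68 lower (0.524%). The results are therefore given mainly as levels per library and as counts of genes whose groups do not overlap, meaning that every LLC library lay above, or below, every PBS library. Without overlap 1233 genes (9.5%) were higher and 512 (3.94%) lower, and those shares are the background for each gene list that follows. With a log2 difference of at least 1 as well, 147 genes (1.13%) were higher and 38 (0.293%) lower, and DESeq2 called 104 and 12 of these. In 83 genes (0.639%) every LLC library held at least 2 times every PBS library, and in 4 genes (0.0308%) at most 1 over 2. The count of lower genes rested on PBS 1: without that library 550 genes were lower and 183 higher by the same rule. Log2 differences are LLC minus PBS on the log2(FPKM + 1) scale, except where edgeR, DESeq2, another scaling or a promoter peak is named. That scale understates the fold of genes near 0, and the median difference over all genes was 0.01.

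**Figure D2:**
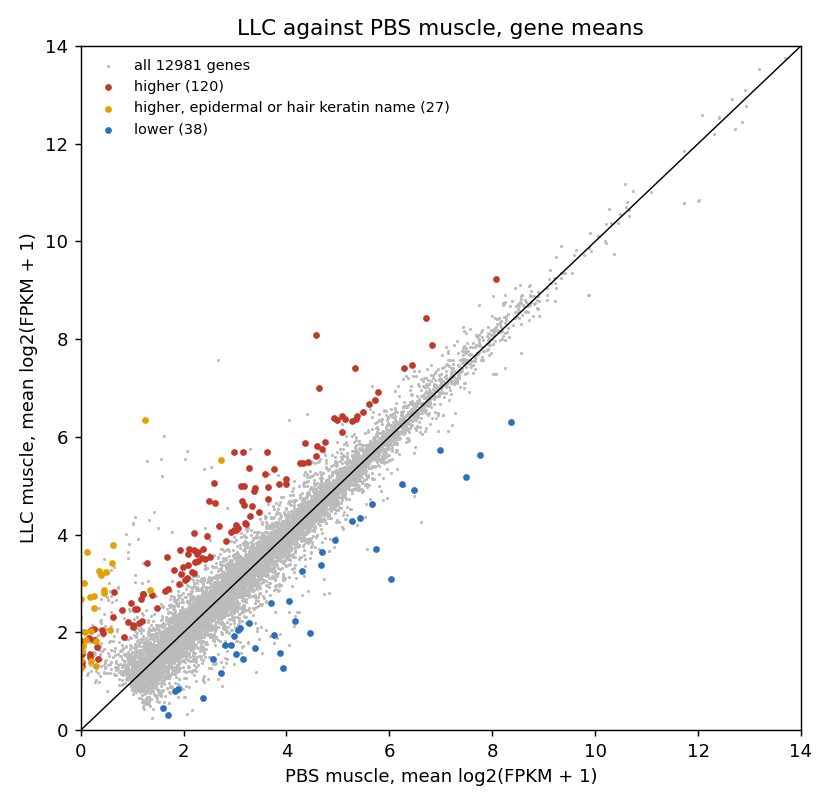
Mean log2(FPKM + 1) of each of the 12981 genes in PBS muscle (x axis) and LLC muscle (y axis), with the line of equality. Points in colour are the 147 higher and 38 lower genes whose groups do not overlap and differ by at least 1; 27 of the higher genes carry names of epidermal or hair keratin genes and are drawn in orange.

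The gene with the smallest p, and one of the sharpest separations, was Grrp1, which codes for a small glycine- and arginine-rich protein (chromosome 4, 134251110 to 134254106, mm10). It stood at 4.12, 5.08 and 4.72 FPKM in the PBS libraries and 22.2, 28.4 and 24.6 FPKM in the LLC libraries, a 5.4-fold difference of means, and its log2 difference was 2.20 (SE 0.14, adjusted p = 0.0573). Both groups were tight and far apart. Acot2, a mitochondrial acyl-CoA thioesterase, showed the same shape at 1.62, 1.66 and 1.54 FPKM in the PBS libraries and 5.39, 5.49 and 6.55 FPKM in the LLC libraries, with a log2 difference of 1.38 (SE 0.12, adjusted p = 0.108). Its reads can be shared with a near-identical paralog. Entpd1, the cell surface enzyme CD39 that breaks down extracellular ATP and ADP, was at 6.85, 7.68 and 7.3 FPKM in the PBS libraries and 16, 16 and 17.6 FPKM in the LLC libraries, and its log2 difference was 1.08 (SE 0.10, adjusted p = 0.108). Scarb1, the HDL receptor SR-BI, stood at 21.3, 23.7 and 24.4 against 48.4, 58.8 and 58.9 FPKM in PBS 1 to 3 and LLC 1 to 3, and Adcy4, an adenylyl cyclase, at 3.89, 4.48 and 3.06 against 10.5, 10.9 and 12.3 FPKM. The long RNA gene Halr1 was at 0.372, 0.334 and 0.313 against 2.48, 3.6 and 3.52 FPKM in the same order. In all 6 genes the groups were well apart and LLC 3 or LLC 2 was the highest library.

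Single genes of fuel choice were far higher in LLC than in PBS muscle, while the list of uncoupling and carnitine genes had a median of 0.14. Pdk4, the kinase that shuts the pyruvate dehydrogenase complex and so spares glucose, stood at 33.6, 18.3 and 19.6 FPKM in the PBS libraries and 154, 340.4 and 369.7 FPKM in the LLC libraries (chromosome 6, 5483351 to 5496278, mm10). Its means differed 12.1-fold, with a log2 difference of 3.49 (SE 0.41, adjusted p = 0.138), and LLC 1 had less than LLC 2 and LLC 3. Ucp3, the uncoupling protein of muscle mitochondria, was at 12.4, 8.35 and 6.14 FPKM in the PBS libraries and 28.9, 46.6 and 48.4 FPKM in the LLC libraries, a log2 difference of 2.10 (SE 0.30, adjusted p = 0.157). A pair of carriers of the mitochondrial inner membrane lay in the same direction. Slc25a34, an orphan carrier, was at 1.49, 0.799 and 1.8 against 5.64, 6.05 and 6.01 FPKM in PBS 1 to 3 and LLC 1 to 3, and Slc25a20, which brings acylcarnitines into the matrix, at 20.9, 25.4 and 26 against 35.9, 40.1 and 37.3 FPKM. Of the 11 uncoupling and carnitine genes tested 4 were higher without overlap and 1, the pyrimidine nucleotide carrier Slc25a33, was lower. Acer2, an alkaline ceramidase that acts on membrane sphingolipids and was named after its values were seen, stood at 1.82, 1.31 and 1.27 FPKM in the PBS libraries and 5.79, 11 and 14 FPKM in the LLC libraries. Idh2, the NADP-linked isocitrate dehydrogenase of mitochondria, was at 96.4, 80.8 and 94.3 FPKM in the PBS libraries and 175, 152 and 127 FPKM in the LLC libraries, with a log2 difference of 0.73 (SE 0.16, adjusted p = 0.303).

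The machinery those fuels feed was nearly level. Of 37 complex I genes 28 were above 0, against 53% of all genes, the median was 0.12, and 1 was higher without overlap. Complexes II to IV had 0 of 27 higher and 1 lower without overlap, with a median of 0.03. ATP synthase genes had 0 of 16 in either direction and a median of 0.08. The citrate cycle had 3 of 19 higher and 1 lower and a median of 0.00, glycolysis 2 of 20 higher and a median of 0.03, and glycogen metabolism 0 of 16 and a median of 0.11. Genes of mitochondrial biogenesis and dynamics had a median of -0.07 with 1 of 17 higher. These shares are near or under the backgrounds of 9.5% and 3.94%, apart from the citrate cycle. Ckm, the muscle creatine kinase and the second most abundant transcript of the table, was at 8469, 10195 and 9282 FPKM in the PBS libraries and 10623, 12255 and 12763 FPKM in the LLC libraries. Short subunit transcripts such as Ndufs5, at 24.3, 85.8 and 95.5 against 96.8, 95.1 and 86.1 FPKM in PBS 1 to 3 and LLC 1 to 3, were low in PBS 1 alone, as short transcripts were in general in that library.

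A feedback gene of cytokine signalling and several cytokine receptor genes were higher in LLC muscle. Socs3, the feedback inhibitor that STAT3 switches on, stood at 2.8, 3.67 and 3.54 FPKM in the PBS libraries and 11.4, 14 and 11 FPKM in the LLC libraries (chromosome 11, 117966087 to 117969366, mm10), and its log2 difference was 1.60 (SE 0.15, adjusted p = 0.108). It was the only 1 of 12 SOCS and cytokine feedback genes higher without overlap, and the list's median was -0.03. Receptor genes named after their values were seen lay in the same direction: Il4ra at 2.6, 5.44 and 6.07 against 12.6, 16 and 15.7 FPKM, the shared beta chain Csf2rb at 2.32, 7.33 and 8.58 against 14.7, 20.6 and 16.2 FPKM, and Osmr, the oncostatin M receptor, at 3.53, 3.86 and 2.44 against 10.0, 10.3 and 13.7 FPKM, each in PBS 1 to 3 and LLC 1 to 3. Jak3, a kinase of gamma-chain cytokine receptors, was at 3.69, 5.38 and 5.28 against 9.89, 10.7 and 11.5 FPKM. Reads of Csf2rb can be shared with its paralog Csf2rb2.

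A list of C/EBP and AP-1 factors, which also holds Klf genes and early-response genes, lay above 0 as a group. Of 22 tested 21 were above 0, the median was 0.52, and 9 were higher and 0 lower without overlap, against 9.5% of all genes. Junb, an AP-1 subunit, was at 4.5, 12.3 and 14.4 FPKM in the PBS libraries and 30.7, 34 and 25.8 FPKM in the LLC libraries. Klf10, a TGF-beta early gene, was at 6.9, 12.3 and 9.66 FPKM in the PBS libraries and 19.8, 37.5 and 31.4 FPKM in the LLC libraries, and Maff, a small MAF partner, at 1.13, 1.2 and 1.3 FPKM in the PBS libraries and 2.87, 3.37 and 4.54 FPKM in the LLC libraries. All 3 were lowest in PBS 1 or level across the PBS libraries. Cebpb, Jun, Fosl2, Ier3, Klf4 and Klf15 were the others without overlap, with log2 differences of 0.89, 0.72, 0.57, 0.88, 0.76 and 0.39. Without PBS 1 the list had 10 higher and 2 lower and a median of 0.39, where 15.4% of all genes were higher, 27.7% lower and the median was -0.07.

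Several lists of stress genes had more members without overlap than the 9.5% of all genes, although the medians, apart from 0.36 for acute phase genes, were 0.12 or less. Mt2, a metallothionein that binds zinc and copper and is induced by glucocorticoids and metals, was at 4.7, 9.05 and 11.6 FPKM in the PBS libraries and 17.5, 35.2 and 21 FPKM in the LLC libraries, a log2 difference of 1.45 (SE 0.38, adjusted p = 0.411), while its neighbour Mt1 was at 13, 23.4 and 36.4 FPKM in the PBS libraries and 32.4, 49.2 and 32.6 FPKM in the LLC libraries with overlapping groups. The metallothionein and zinc transporter list had 5 of 16 higher and 1 lower, the lower one being the zinc transporter Slc30a9 at 27.1, 31.5 and 33.8 against 23.8, 23.2 and 22.9 FPKM in PBS 1 to 3 and LLC 1 to 3. Cdkn1a, the cell cycle inhibitor p21, was at 6.94, 9.33 and 8.6 FPKM in the PBS libraries and 18.4, 15.4 and 15.8 FPKM in the LLC libraries, with a log2 difference of 0.92 (SE 0.14, adjusted p = 0.168), and Phlda3, a p53 target that restrains AKT, at 79.1, 98.5 and 78.7 against 123, 139.8 and 129.7 FPKM. The median of the metallothionein list was 0.10. In the p53 and GADD45 list 4 of 20 were higher and the median was 0.08. Among 20 NF-kB pathway genes 3 were higher: Bcl3, a nuclear IkB protein, at 1.79, 3.81 and 4.03 against 7.61, 7.97 and 6.68 FPKM, Tnfrsf12a, the TWEAK receptor Fn14, at 8.33, 9.36 and 7.19 against 10.8, 30.2 and 16.8 FPKM, and Tnfrsf1a, a TNF receptor, at 24.7, 37.9 and 40.0 against 47, 52.7 and 45 FPKM. In Tnfrsf12a the LLC libraries were far apart. NRF2 and antioxidant genes had 5 of 22 higher, with Gpx3, the secreted glutathione peroxidase, at 161, 199 and 161 against 208, 359 and 310.0 FPKM. MAP kinase phosphatases had 4 of 14 higher and 1 lower. Acute phase genes had 2 of 7 higher, Serpina3n and Lrg1, and 11 of the 18 on that list were not in the table or under 1 FPKM, among them Saa1, Saa2 and Saa3. Without PBS 1, 15.4% of all genes were higher and 27.7% lower without overlap. At that setting the metallothionein list had 6 of 17 higher and 4 lower, and the p53 and GADD45 list 4 and 4 of 20. NF-kB genes had 3 and 3 of 20, NRF2 genes 6 and 5 of 22, and MAP kinase phosphatases 5 and 1 of 14. The acute phase list had 2 of 7 higher, with a median of -0.12.

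The promoters of the 147 higher genes were searched for short motifs of factors known to act in wasting muscle, and those with a steroid receptor motif are shown here. A palindrome of the glucocorticoid response type, the arms GNACA and TGTNC with 3 bases between them on either strand, was found in the 250 bases before the start of 4 of 112 higher genes with a RefSeq promoter (3.57%), 40 of all 10089 tested genes with one (0.396%), and 0 of 26 lower genes. The 4 genes were Trim63, which codes for the muscle ubiquitin ligase MuRF1, Serpina3n, a secreted protease inhibitor, Slc10a6, a transporter of steroid sulfates, and Map3k6, a stress kinase. Mt1 holds the motif as well. A FOXO-type letter string, TGTTTAC, was found in 6 of the 112 (5.36%) and in 2.7% of all, and an AP-1 string, TGANTCA, in 13 (11.6%) against 5.79%, while a STAT string, TTCCNGGAA, was found in 1 (0.893%) against 1.21% and a looser one, TTCNNNGAA, in 13 (11.6%) against 7.12%. A C/EBP string, TTGCNNAA, was found in 12.5% of the higher and 23.1% of the lower genes against 9.42% of all. Of the metal response strings TGCACNC was found in 15.2% against 12.6% and TGCGCNC in 10.7% against 24.3%, and the E-box CACGTG in 5.36% against 9.93%. The PPAR and heat shock elements were found in 0 of the 112, against 0.0297% and 0.456% of all. The motifs were chosen after the values were seen, the shares are a description without a test, and a match is not a bound site. The stretches of 30 bases that hold the palindrome are printed from RefSeq (GRCm38.p6), with each motif in capitals; in Trim63 the second run of capitals is the FOXO-type string, set apart from the palindrome by a single base.
Trim63 (chr4:134314910-134314939, plus strand): ctGAACAGTCTGTTCtTGTTTACgaccccc
Serpina3n (chr12:104406622-104406651, plus strand): agcacagaGCACAGCTTGTCCatgccagca
Slc10a6 (chr5:103629545-103629574, minus strand): cttccctaGAACACGATGTGCcactgtcga
Map3k6 (chr4:133240632-133240661, plus strand): tagggGCACAGGCTGTTCcggaagtggaca
Mt1 (chr8:94178987-94179016, plus strand): cactatagGGACATGATGTTCcacacgtca

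Those 5 genes differed in level and in how cleanly the groups separated. Slc10a6 was at 1.29, 1.06 and 1.09 FPKM in the PBS libraries and 3.14, 4.89 and 6.01 FPKM in the LLC libraries, a 4.08-fold difference of means. Map3k6 was at 2.31, 2.12 and 2.29 FPKM in the PBS libraries and 4.38, 7.5 and 7.83 FPKM in the LLC libraries. Serpina3n was at 10.3, 11.1 and 8.83 FPKM in the PBS libraries and 17.1, 28.3 and 19.7 FPKM in the LLC libraries, and Trim63 at 57.7, 56 and 48.9 FPKM in the PBS libraries and 69.1, 145 and 172 FPKM in the LLC libraries. In all 4 of these genes LLC 1 lay closest to the PBS libraries, and in Mt1, given above, the groups overlapped.

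**Figure D3:**
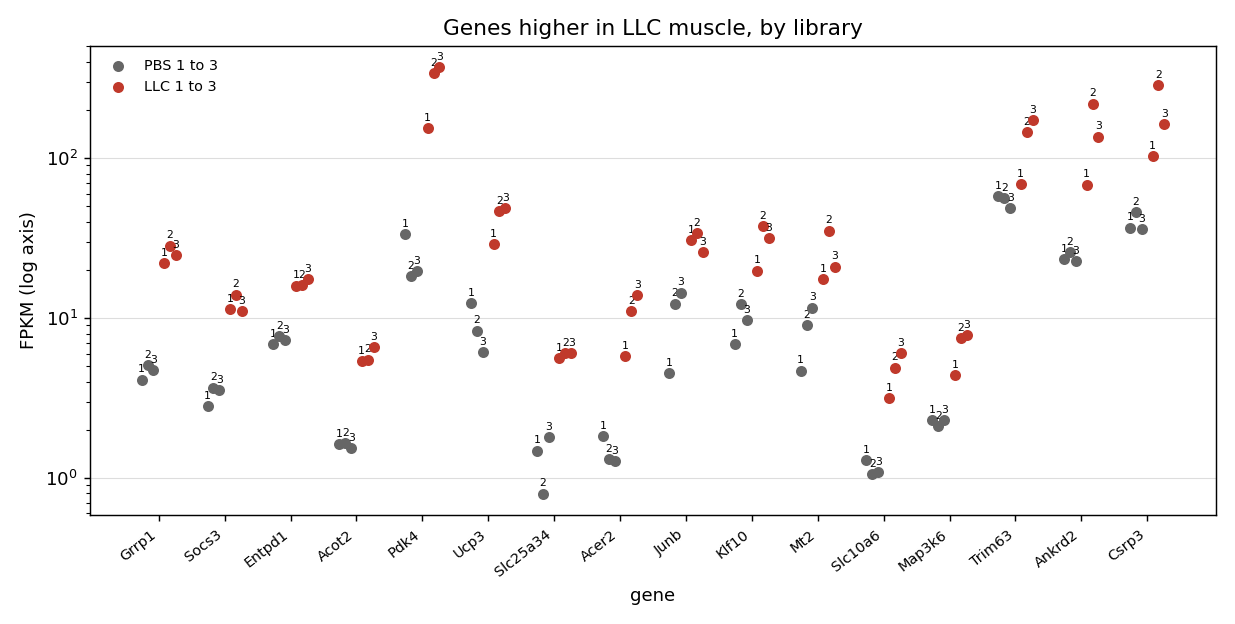
FPKM of 16 genes higher in LLC muscle in each library, on a log axis, with PBS 1 to 3 in grey and LLC 1 to 3 in red. In every gene shown the 3 red points lie above the 3 grey points; Grrp1, Socs3, Entpd1 and Acot2 have tight groups, and LLC 1 is the lowest LLC library in Pdk4, Ankrd2 and Csrp3.

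Genes of blood vessels were higher in LLC muscle. Of 17 endothelial markers 17 were above 0, 15 were higher without overlap, and the median was 0.88. Their summed level was 481, 648 and 537 FPKM in the PBS libraries and 864, 1114 and 1631 FPKM in the LLC libraries. Cldn5, of endothelial tight junctions, was at 8.02, 12.3 and 13.3 against 34, 38.3 and 38.6 FPKM in PBS 1 to 3 and LLC 1 to 3, and Sox17, an arterial transcription factor, at 3.25, 3.51 and 2.29 against 7.89, 8.92 and 10.9 FPKM. In bulk RNA more cells of a type and more RNA per cell cannot be told apart. The count was 15 of 17 without PBS 1, without LLC 3 and without both. Of all genes 15.4%, 12% and 18.4% were higher at these settings. Leaving libraries out cannot make separated groups overlap, so this count could not fall. Angiogenic ligands and receptors had 12 of 24 higher and 2 lower, with a median of 0.41. Among the receptors Flt1, VEGF receptor 1, was at 7.68, 6.3 and 4.68 against 13.2, 11.7 and 16.1 FPKM, Tie1 at 13.1, 13.7 and 12.3 against 19.7, 23 and 20.9 FPKM and Notch4 at 2.65, 2.78 and 2.19 against 4.26, 6.02 and 5.73 FPKM. The oxygen-regulated factor gene Hif1a was at 11, 10.9 and 9.83 FPKM in the PBS libraries and 17.6, 15.9 and 19.5 FPKM in the LLC libraries. The ligand genes differed in direction: Vegfa and Angptl4 were higher, with log2 differences of 0.39 and 1.82, and Vegfc and Apln lower, at -0.30 and -0.43. The smooth muscle and pericyte list had 4 of 11 higher with a median of 0.30, and its 11 members were all above 0.

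Semaphorins, guidance ligands that act through plexins and neuropilins on axons and vessels, were split by member. Sema6b was at 2.01, 2.28 and 2.04 FPKM in the PBS libraries and 5.67, 6.84 and 6.08 FPKM in the LLC libraries, with a log2 difference of 1.21 (SE 0.12, adjusted p = 0.108), and Sema3g at 3.5, 4.06 and 3.32 FPKM in the PBS libraries and 9.98, 12.4 and 13.5 FPKM in the LLC libraries, with 1.48 (SE 0.15, adjusted p = 0.108). Sema7a and Sema3f were higher without overlap too, at 6.99, 7.55 and 6.33 against 13.8, 17 and 18 FPKM and 4.88, 3.19 and 3.08 against 8.87, 10.4 and 10.7 FPKM in PBS 1 to 3 and LLC 1 to 3. Sema4c, Sema6a, Plxna2 and Nrp1 made up the 8 of 22 higher members. Sema6c, Sema4d and Plxnd1 were the 3 lower ones, with log2 differences of -0.66, -0.25 and -0.30, and the list's median was 0.09. Igfbp7, a secreted IGF-binding protein of vessel walls, was at 109, 131 and 101 FPKM in the PBS libraries and 221, 234 and 251 FPKM in the LLC libraries. The endothelial marker sum given above is higher in the same libraries, and its part in the semaphorin values was not tested.

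Of the contractile genes, those of the Z-disc and the stretch sensors attached to it had the most members without overlap. Of 25 tested 21 were above 0, 10 were higher and 0 lower without overlap, and the median was 0.42. Ankrd2, a titin-bound ankyrin repeat protein that also enters the nucleus, was at 23.3, 25.8 and 22.8 FPKM in the PBS libraries and 68.2, 219 and 136 FPKM in the LLC libraries, a 5.9-fold difference of means and a log2 difference of 2.36 (SE 0.41, adjusted p = 0.203). Csrp3, the muscle LIM protein, was at 36.8, 46 and 36.1 FPKM in the PBS libraries and 103, 286 and 163 FPKM in the LLC libraries. LLC 2 had the highest level of both. Actn2, the alpha-actinin that crosslinks actin in all fibre types, was at 149, 131 and 131 FPKM in the PBS libraries and 213, 251 and 220.5 FPKM in the LLC libraries, and Flnc, a filamin of the Z-disc, at 35.4, 36.3 and 27.5 against 50.4, 84.6 and 74.1 FPKM in PBS 1 to 3 and LLC 1 to 3. Tcap, Pdlim5, Ankrd1, Fhl1, Cryab and Xirp1 were the other members without overlap, with log2 differences between 0.45 and 1.33. Without PBS 1 the Z-disc count was 17 of 25, where 15.4% of all genes were higher. The myosin heavy chain list had 3 of 10 higher and the myosin light chain and troponin list 3 of 23. Both had a median of 0.39. Without PBS 1 they had 4 of 11 and 11 of 23 higher, and 1 lower each. Several of the Z-disc genes are also higher in slow fibres. The slow myosin gene Myh7 was at 25.9, 5.14 and 3.36 FPKM in the PBS libraries and 84, 56.5 and 27.8 FPKM in the LLC libraries. Reads of its antisense RNA gene Mhrt, at 18.1, 4.81 and 3.4 against 74.8, 65 and 27.3 FPKM, cannot be told apart from it, since strands were counted together. Myh7 was higher without overlap, with PBS 1 at 25.9 FPKM close under LLC 3 at 27.8 FPKM. How far slow fibre content accounts for the Z-disc values was not tested.

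The calsequestrin genes of the calcium store differed in direction by isoform. Casq1, the calsequestrin of fast fibres, was at 1607, 1338 and 1069 FPKM in the PBS libraries and 1006, 752 and 825 FPKM in the LLC libraries. Casq2, that of slow fibres and heart, was at 14.3, 7.52 and 9.72 FPKM in the PBS libraries and 22.1, 21.9 and 14.4 FPKM in the LLC libraries. In Casq2 PBS 1 at 14.3 FPKM lay just under LLC 3 at 14.4 FPKM. Pvalb, the calcium buffer of fast fibres, was lower without overlap at 8579, 6403 and 5602 against 5499, 4604 and 5131 FPKM in PBS 1 to 3 and LLC 1 to 3. With 2 of 28 higher, 2 lower and a median of 0.00, the calcium handling list as a whole was level. Sarcolemmal ion channels had 0 of 19 in either direction and a median of -0.03. The dystrophin complex, integrins and laminins had 3 of 22 higher, among them Utrn, the dystrophin homologue, at 5.0, 4.97 and 3.61 against 6.6, 5.47 and 7.67 FPKM, and Trim72, the membrane repair protein MG53, at 53, 50.3 and 39.2 against 60.8, 83.6 and 66.1 FPKM. Chrna1, the alpha subunit of the muscle acetylcholine receptor, was the 1 of 14 synapse genes higher without overlap, at 3.48, 3.22 and 2.1 against 5.67, 6.19 and 3.97 FPKM. Among 20 myogenic cofactor genes 5 were higher and 0 lower, with Vgll2, a TEAD partner of muscle, at 24.2, 21.9 and 22.5 against 31.7, 34.2 and 29.4 FPKM. Of the 15 genes with the highest mean level 12 overlapped between the groups. They were the actin gene Acta1, the troponin genes Tnnt3, Tnnc2 and Tnni2, the tropomyosin gene Tpm1, the light chain genes Myl1 and Mylpf, the calcium pump gene Atp2a1 and the haemoglobin genes Hba-a1, Hba-a2, Hbb-bs and Hbb-b1, with log2 differences from -1.16 to 0.51. Acta1, the most abundant, was at 17200.3, 12488 and 10563 FPKM in the PBS libraries and 12849, 14496 and 14026 FPKM in the LLC libraries. The other 3 were Ckm and Aldoa, which were higher, and Pvalb, which was lower.

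Among protein synthesis genes the medians of cytosolic ribosomal proteins and of initiation and elongation factors changed sign without PBS 1. Of 77 cytosolic ribosomal protein genes 72 were above 0 with a median of 0.22, yet 0 were higher and 0 lower without overlap. Their summed level was 10722, 21234 and 28028 FPKM in the PBS libraries and 20904, 24659 and 18373 FPKM in the LLC libraries, so PBS 1 had the lowest and PBS 3 the highest sum of the 6 libraries. Without PBS 1 the median was -0.18 while that of all genes was -0.07. Initiation and elongation factors had 10 of 44 higher and 1 lower without overlap. Eif4ebp1, the repressor 4E-BP1 that mTORC1 inactivates, was at 31.9, 40.4 and 40.9 FPKM in the PBS libraries and 47.8, 77.5 and 71.6 FPKM in the LLC libraries, and Eif4e, the cap-binding protein it holds, was the lower member, with a log2 difference of -0.19. Eef2, elongation factor 2, was at 343, 447 and 478 against 494, 591 and 539 FPKM in PBS 1 to 3 and LLC 1 to 3. Without PBS 1 these factors counted 14 higher and 6 lower, at backgrounds of 15.4% and 27.7%, and their median went from 0.10 to -0.03. The count of higher factors could not fall when a library was left out. Aminoacyl-tRNA synthetases had 5 of 20 higher and 0 lower, with Wars at 17.7, 17.6 and 17.4 against 20.1, 21.1 and 22.9 FPKM, and without PBS 1 the counts were 5 and 4 of 20. Mitochondrial ribosomal proteins had 4 of 75 higher and 3 lower.

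Of 20 amino acid transporter genes 2 were higher and 1 lower without overlap, with a median of -0.01. Without PBS 1 the counts were 3 and 10, where 15.4% of all genes were higher and 27.7% lower. Slc7a2, a cationic amino acid transporter that carries arginine, was at 13.3, 6.94 and 5.61 FPKM in the PBS libraries and 13.4, 16.2 and 26.3 FPKM in the LLC libraries, and PBS 1 at 13.3 FPKM lay just under LLC 1 at 13.4 FPKM. Slc38a2, the transporter SNAT2, was higher without overlap and Slc7a8, the transporter LAT2, lower, with log2 differences of 0.35 and -0.42. Slc16a10, which carries aromatic amino acids, was at 14.2, 18.1 and 18.7 FPKM in the PBS libraries and 8.95, 10.6 and 8.64 FPKM in the LLC libraries, with a log2 difference of -0.78 (SE 0.15, adjusted p = 0.239). Of 19 breakdown genes 2 were lower and 0 higher: Bcat2, the mitochondrial branched-chain aminotransferase, at 33.7, 39 and 40.0 against 31.2, 27.9 and 28.8 FPKM, and Ivd, of leucine breakdown, at 44.2, 38.9 and 35.1 against 34.9, 25.6 and 30.3 FPKM, in PBS 1 to 3 and LLC 1 to 3. Polyamine genes had 10 of 12 below 0 and a median of -0.28, with 0 lower without overlap. Amd1 and Amd2, near-identical genes for the decarboxylase that makes polyamines from S-adenosylmethionine, share reads and were at 511, 230.0 and 159 against 137, 125 and 217 FPKM and 513, 231 and 159.9 against 137, 125 and 218 FPKM, with PBS 1 far above the rest.

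The genes named in the study's title and their partners are given briefly. Ddit4, which codes for REDD1, an inhibitor of mTORC1, had values of 5.27, 7.68 and 9.62 against 12.1, 17.9 and 21.2 FPKM in PBS 1 to 3 and LLC 1 to 3, and Fbxo32, the ligase atrogin-1, 24.9, 17.9 and 16.8 against 31.8, 69.6 and 85 FPKM. Of 15 atrophy ligase and REDD1 genes 8 were higher and 0 lower without overlap, including Fbxo31, Fbxo21, Trim54, Ubr2 and Cblb, with log2 differences between 0.25 and 0.43. The methionine cycle had 0 of 13 higher and 1 lower, the creatine-forming methyltransferase gene Gamt at 13.7, 13.7 and 8.42 against 7.52, 7.54 and 6.28 FPKM, and a median of -0.03. Without PBS 1 that list had 2 lower, where 27.7% of all genes were lower. Mat2a, which makes S-adenosylmethionine, was at 79.7, 73.2 and 58.7 FPKM in the PBS libraries and 62.2, 65 and 69.9 FPKM in the LLC libraries, and Ahcy, which breaks down S-adenosylhomocysteine, at 12.8, 16.7 and 18.6 FPKM in the PBS libraries and 13.6, 18.6 and 15 FPKM in the LLC libraries. Both overlapped between the groups.

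The lower genes with the smallest p-values were of 2 kinds, modest differences with tight groups and large ones spread over the libraries. Col1a1, Col1a2 and Cilp2 were of the second kind and are described with the matrix genes. Fam78a, a gene with little known function, was at 8.38, 9.85 and 9.51 FPKM in the PBS libraries and 4.57, 4.94 and 4.58 FPKM in the LLC libraries (chromosome 2, 32066885 to 32083705, mm10), a log2 difference of -0.84 (SE 0.11, adjusted p = 0.142). Metrn, the secreted factor meteorin, was at 19.8, 21.7 and 22.3 FPKM in the PBS libraries and 12.8, 11.3 and 10.1 FPKM in the LLC libraries, with -0.85 (SE 0.12, adjusted p = 0.157). Kmt5a, the methyltransferase of histone H4 lysine 20, was at 44.7, 40.6 and 44.8 FPKM in the PBS libraries and 29.1, 29.4 and 26.1 FPKM in the LLC libraries, with -0.60 (SE 0.11, adjusted p = 0.205). Fads1, the delta-5 fatty acid desaturase, was at 8.5, 11.9 and 12.1 against 5.68, 5.99 and 5.57 FPKM in PBS 1 to 3 and LLC 1 to 3. Ibtk, an inhibitor of Bruton tyrosine kinase, was at 19.3, 21.1 and 22.2 against 14.9, 14.3 and 13.5 FPKM, and Cpq, a secreted carboxypeptidase, at 15.4, 15.5 and 14.3 against 10.5, 10.4 and 10.9 FPKM. In all 6 of these genes the LLC libraries lay within a narrow band under the PBS libraries.

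Matrix genes were among the largest differences downward, and they were graded across the LLC libraries. Of the 38 lower genes 6 are collagen genes (15.8%), while 26 of the 12981 genes tested are (0.2%). At any size 10 of these 26 were lower and 2 higher without overlap. Another 5 of the 38 are on the tendon and cartilage list, which has 9 tested members, all below 0, with a median of -2.31. Chad, chondroadherin of cartilage and tendon, was at 71.6, 72.7 and 52.1 FPKM in the PBS libraries and 34.8, 7.77 and 0.983 FPKM in the LLC libraries. Cilp2, a cartilage protein, was at 11.8, 19.6 and 12.3 FPKM in the PBS libraries and 4.08, 0.985 and 0.391 FPKM in the LLC libraries, a log2 difference of -2.66 (SE 0.50, adjusted p = 0.234). Fmod, which organises collagen fibrils, was at 227, 191 and 134 against 112, 34.3 and 11 FPKM in PBS 1 to 3 and LLC 1 to 3, Kera, keratocan, at 23.1, 11.9 and 9.26 against 5.73, 1.32 and 0.679 FPKM, and Mfap4, of elastic microfibrils, at 22.9, 18.7 and 11.1 against 8.18, 3.25 and 1.69 FPKM. Col1a1, the main chain of type I collagen, was at 159, 334 and 188 FPKM in the PBS libraries and 79, 40.4 and 36.3 FPKM in the LLC libraries, with a log2 difference of -2.12 (SE 0.40, adjusted p = 0.233). LLC 1 held the highest LLC level in 31 of the 38 genes and LLC 3 the lowest in 26. The summed level of the 12 tendon and cartilage markers followed the same order, at 474, 438 and 328 FPKM in the PBS libraries and 312, 103 and 45.5 FPKM in the LLC libraries. The part of tendon content of the sample in the collagen values was not tested. Without LLC 3 the list's median was -1.12. Wnt antagonists were among the lower genes as well: Wif1 was at 7.28, 12.7 and 9.11 against 6.34, 2.17 and 0.414 FPKM, and Sfrp2 and Sfrp4, named after their values were seen, at 7.09, 7.76 and 3.9 against 2.35, 2.56 and 2.17 FPKM and 31.7, 26.6 and 17.3 against 12.1, 12.5 and 5.41 FPKM. Angptl7, a secreted angiopoietin-like protein, was at 46.3, 61.7 and 51.1 against 36.7, 12.2 and 3.4 FPKM, Nrep, a neuronal regeneration related protein, at 109.7, 90.8 and 68.7 against 54.9, 17.9 and 24.6 FPKM, and Odf3l2 at 7.51, 20.6 and 12.4 against 1.75, 5.64 and 2.17 FPKM. Tfrc, the transferrin receptor, was at 56.5, 79.7 and 93.9 FPKM in the PBS libraries and 32.5, 52.2 and 19.1 FPKM in the LLC libraries and is also an erythroid marker; the other 12 erythroid markers tested overlapped between the groups, all 13 lay below 0 with a median of -1.41, and the part of red cell precursors in its value was not tested. Without PBS 1, where 27.7% of all genes were lower, all 13 were lower without overlap, with a median of -2.65.

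**Figure D4:**
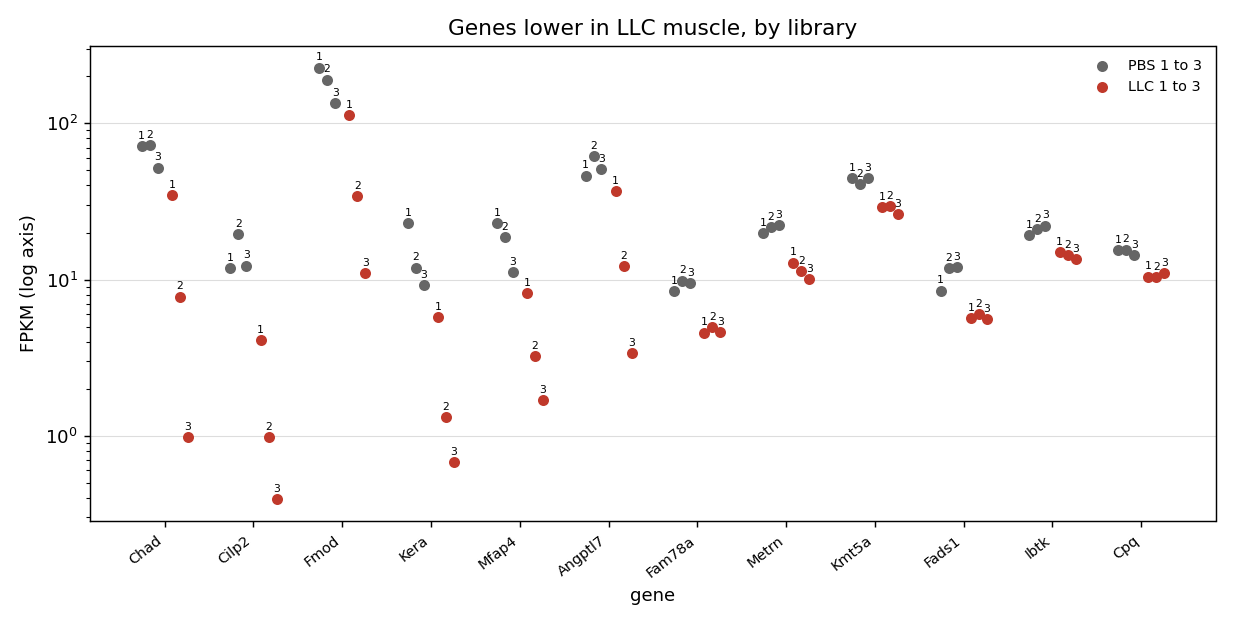
FPKM of 12 genes lower in LLC muscle in each library, on a log axis, with PBS 1 to 3 in grey and LLC 1 to 3 in red. The matrix genes on the left spread widely within LLC muscle, with LLC 1 highest, while Fam78a, Metrn, Kmt5a, Fads1, Ibtk and Cpq on the right have tight groups.

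Genes of skin were among the largest differences. By name 27 of the 147 higher genes are epidermal or hair keratin genes, a name pattern chosen after the values were seen. How many of all genes tested carry such names was not counted, so the 27 stand without a background share. Krt2, a keratin of the upper epidermis, was listed at 0, 0.923 and 6.13 FPKM in the PBS libraries and at 342, 11.7 and 124 FPKM in the LLC libraries. Krt24 was at 0.016, 0.115 and 0.157 against 51.8, 0.88 and 18.7 FPKM in the same order, and Sprr1b, of the cornified envelope, was listed at 0 in all 3 PBS libraries and at 9.41, 1.31 and 9.96 FPKM in LLC 1 to 3. The late cornified envelope genes Lce1d, Lce1e, Lce1f, Lce1g, Lce1h, Lce1j, Lce1k and Lce1l belong to the same set. Over the 27 genes the median of the group means was 0.23 FPKM in PBS and 7.04 FPKM in LLC muscle. A gene near 0 in PBS muscle passed the filter only through its LLC level. Such a gene could meet the rule of no overlap only as higher. LLC 1 was the highest LLC library in 25 of the 27 genes, LLC 2 the lowest in 25, and PBS 3 the highest PBS library in 23. The 15 keratinocyte markers, all above 0 with a median of 2.28, summed to 5.2, 16.4 and 187 FPKM in the PBS libraries and 1709, 97.9 and 675 FPKM in the LLC libraries, so the sum in PBS 3 exceeded that in LLC 2. A single member, Trp63, was higher without overlap. Markers of simple epithelium were low: 3 of 9 in the table were tested, and the sums were 1.36, 2.87 and 4.71 FPKM in the PBS libraries and 19.2, 2.45 and 6.09 FPKM in the LLC libraries. For the 120 higher genes outside that name pattern the order of the libraries was different, with LLC 3 the highest in 61, LLC 2 in 42 and LLC 1 in 17. The pattern goes by name only, so these 120 need not be free of skin genes.

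Lists of other cell types had few members without overlap with all 6 libraries, and several had more without PBS 1. Macrophage markers had 0 of 16 without overlap and a median of -0.09, B and T cell markers 1 lower of 14 and a median of -1.05, satellite cell markers 0 of 7, Schwann cell markers 0 of 10, and osteoblast and osteoclast markers 0 of 13 and a median of -0.64. Without PBS 1, where 27.7% of all genes were lower, 8 of 16 macrophage, 6 of 15 B and T cell, 11 of 13 osteoblast and osteoclast and 9 of 24 complement and antigen presentation genes were lower without overlap. Fibro-adipogenic progenitor markers had 1 higher, Ly6a at 85.7, 69.1 and 52.8 against 109, 127 and 130.4 FPKM in PBS 1 to 3 and LLC 1 to 3, and 2 lower, Pi16 and Dpp4, of 15. Fat cell markers had 2 of 15 higher, and their sum was high in LLC 3 alone, at 641, 833 and 504 FPKM in the PBS libraries and 518, 498 and 1831 FPKM in the LLC libraries. Without LLC 3, where 12% of all genes were higher and 5.54% lower, 2 of the 15 were higher and 7 lower. Their median went from 0.25 to -0.42. At the same setting 7 of 13 B and T cell markers were lower. Complement and antigen presentation genes had 1 of 24 higher, C4b at 24.7, 26.8 and 14.1 against 28.1, 37.1 and 44.4 FPKM. Chemokine genes had 2 of 16 higher: Cxcl13, which draws B lymphocytes, at 0.534, 0.731 and 0.449 against 2.05, 3.42 and 25.5 FPKM, where LLC 3 stood far above the rest, and Cxcl14 at 43.2, 44.3 and 37.7 against 63.7, 48.5 and 49.1 FPKM. Further genes of the 147 that belong to no list, named after their values were seen, include the antiviral Ifitm1 at 1.64, 6.3 and 10.5 against 47.3, 52.8 and 13.2 FPKM, the hormone erythroferrone, Erfe, at 0.493, 0.781 and 0.37 against 1.68, 7.08 and 4.75 FPKM, the uridine phosphorylase Upp1 at 0.568, 1.06 and 1.42 against 4.24, 7.0 and 4.45 FPKM and Tmem252 at 2.96, 2.29 and 1.57 against 6.44, 11.8 and 15.4 FPKM.

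**Figure D5:**
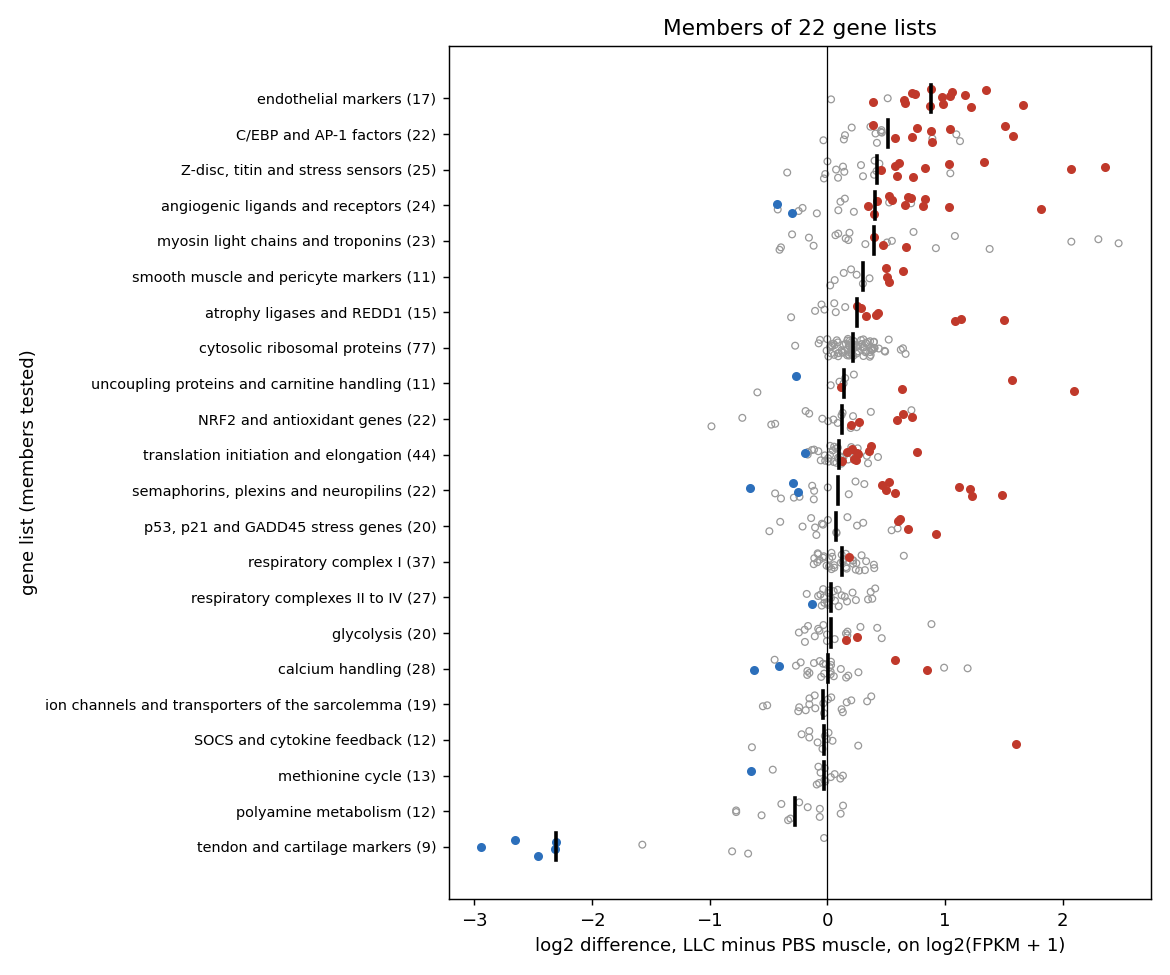
Log2 difference of every tested member of 22 gene lists (points) with the list's median (black bar), LLC minus PBS muscle; filled red points are higher and filled blue points lower without overlap of the groups, open grey points overlap. The endothelial, C/EBP and AP-1, angiogenic and Z-disc lists lie to the right of 0, the tendon list to the left, and the respiratory, glycolytic and ion channel lists around 0.

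Open chromatin at the promoters of these genes can be read only from another system, C2C12 myotubes kept for 24 hours in medium of Colon-26 carcinoma cells or left as controls. A promoter peak within 1000 bp of the annotated start was present for 8948 of the 12981 genes (68.9%), for 49 of the 147 higher genes (33.3%) and for 14 of the 38 lower genes (36.8%). With median-of-ratios scaling limma called 151 promoter peaks higher (1.69%) and 2046 lower (22.9%) after the conditioned medium, and among the 49 the counts were 7 and 5, among the 14 they were 0 and 5. The promoter peaks of Mt2 and Pdk4 were called higher, with scaled log2 differences of 0.64 (adjusted p = 8.56e-08) and 0.37 (adjusted p = 0.00809). The peak at Socs3 was not called, at -0.21 (adjusted p = 0.0667), and that at Acot2 was called lower, at -0.63 (adjusted p = 1.58e-05). With the deposited scaling the median of all peaks was -0.54, and 1 promoter peak (0.0112%) was called higher and 87 lower, of which 0 and 3 belonged to the 147 higher genes and 0 and 0 to the 38 lower ones, so these directions are relative to the median peak.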

How the data were processed

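The authors deposited one table of FPKM per gene for 6 muscle libraries, counted with HOMER over exons of mm10, reads of both strands together, per the file headers, so antisense genes cannot be told apart. The ATAC table holds tag signal per peak that the authors scaled to one total per library with HOMER, per the file headers. The submitters' processing notes also name HISAT2, DESeq2, Bowtie2 and MACS2; tool versions: not given in the sources used here. Every low FPKM checked, multiplied by transcript length, was a whole multiple (within 0.1) of a library's step. The check covered transcripts under 3000 bp only. The steps gave read ends of all transcripts for the count tests: 25.7 M to 32.5 M per library.

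Testing of genes at a mean of 1 FPKM or more used limma 3.58.1 (trend, two-sided, Benjamini-Hochberg, R 4.3.3) on log2(FPKM + 1). edgeR 4.0.16 and DESeq2 1.42.0 were run on the recovered reads as alternatives, and the scripts were tested on simulated data. ATAC peaks were tested likewise, with peaks needing a mean of 5 tags. Genes were named from the 15 largest differences each way without overlap, the 10 smallest p-values each way, the 15 highest means, up to 4 members of each of 54 lists by smallest p, and 5 set genes (Trim63, Fbxo32, Ddit4, Ahcy and Mat2a); predicted loci were counted and not described. Any other gene named, such as further members without overlap, was chosen after its values were seen. The members and lists were chosen with earlier results of these data known. Promoter letters came from RefSeq (GRCm38.p6). Figures were drawn with matplotlib.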

Additional observations from a re-analysis of the deposited data

How the results depend on the processing

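The count of 0 called genes held with pseudocounts of 0.1 and 0.5, without a filter, without the variance trend, with edgeR and with any one library left out (0 to 0). It became 1 with a mean of at least 5 FPKM, 2 with TPM, 1 with median-of-ratios scaling, 1 at an adjusted p under 0.1, 3 with the neutrophil marker level as a covariate, and 312 with DESeq2. Libraries of the same replicate number had correlations of deviations of -0.09, 0.60 and -0.60, with no common sign. These values cannot settle whether the numbers pair the samples. With the replicate block 0 genes were called. The alternatives that follow were added after seeing the data. With the first principal component, computed from the same values, as a covariate 167 genes were called, 145 higher and 22 lower. The keratinocyte marker level as a covariate gave 0, and an endothelial one was not kept, since that level does not overlap between the groups.

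The 185 genes without overlap and with a log2 difference of at least 1 became 282 on log2(FPKM + 0.1) and 245 with TPM. With one library left out the count lay between 197 and 733: it was 733 without PBS 1 (183 higher, 550 lower), 338 without PBS 3 and 332 without LLC 2. Without PBS 1 and LLC 3 it was 589 (174 higher, 415 lower), and without PBS 3 and LLC 1 343. Fewer libraries make overlap rarer by construction, but the turn to lower genes appeared where PBS 1 was left out, and its cause was not tested. At the same setting the median of all genes was -0.07, the ribosomal protein median went from 0.22 to -0.18, and 2016 genes were higher and 3624 lower without overlap at any size. Endothelial markers without overlap numbered 15 of 17 without PBS 1, without LLC 3 and without both, and 16 without PBS 3 and LLC 1. Leaving libraries out could not lower this count. The inferred depth was alike across libraries, and with 3 libraries a group their number limits the precision.

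Among abundant and set genes whose groups overlap, the log2 difference changed sign in some alternatives. The edgeR and DESeq2 values are log2 differences of recovered read ends and not of log2(FPKM + 1). Acta1 (main 0.07) was at -0.025 with edgeR, -0.035 with DESeq2 and -0.040 without PBS 3 and LLC 1, and between -0.090 and 0.26 with one library left out. Ahcy (main -0.02) was at 0.030 with TPM, 0.042 with the principal component and 0.18 without PBS 3 and LLC 1, and between -0.16 and 0.090 with one library left out. With the keratinocyte level Mat2a (main -0.09) was at 0.11, Mylpf at 0.12, Tpm1 at 0.073 and Tnnc2 at -0.00097. Without PBS 1 and LLC 3 Tnnc2 was at -0.10 and Tnni2 at -0.091, and without PBS 3 and LLC 1 both Hbb-b1 and Hbb-bs at 0.18. With one library left out Mat2a lay between -0.22 and 0.0013, Atp2a1 between -0.0091 and 0.25, Hbb-b1 between -2.43 and 0.081, Hbb-bs between -2.43 and 0.080, Tnnc2 between -0.060 and 0.27 and Tnni2 between -0.030 and 0.79. The cause was not tested.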
